A study of Homo sapiens with 4 samples.

Results

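NEAT1 and MALAT1, a pair of long non-coding RNAs kept in the nucleus, were described in iCLIP data for PDCD4 (programmed cell death 4, an RNA-binding tumour suppressor that inhibits translation). In iCLIP, UV light cross-links RNA to protein, the protein is immunoprecipitated, and cDNAs that stop at the cross-linked nucleotide mark the crosslink site. Both RNAs were chosen by their sums in these lists, where they stood among the highest of the IgG control. Every crosslink site whose label holds the exact symbol NEAT1 or MALAT1 was taken, namely 304 of the 158922 sites listed for PDCD4 and 669 of the 111361 sites listed for IgG, in 2 of 14416 genes with a site. The lysates came from MCF10A, a line of breast epithelial cells that is not transformed, labelled as wild type and grown in medium with EGF, insulin, hydrocortisone and cholera toxin, and their labels name no treatment. Of the samples, 2 were immunoprecipitated with PDCD4 antibody and 2 with IgG. The replicates of each immunoprecipitation are pooled in 1 list, so no spread between replicates is known, the immunoprecipitations could not be tested against each other, and every interval below covers counting error only. All 8 basal epithelial markers looked for, among them KRT5 and KRT6A, had listed sites, although KRT14 had only 1 PDCD4 site with 3 cDNAs and none of IgG. PTPRC, PECAM1, COL1A1 and DES, which mark other cell types, had none in either list.

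NEAT1 is the RNA scaffold of paraspeckles, nuclear bodies that hold RNA-binding proteins such as NONO, SFPQ and PSPC1. It is made as a short polyadenylated transcript and as a long one from the same promoter, and the long transcript is the one that builds paraspeckles. MALAT1 is an abundant RNA of nuclear speckles, where splicing factors gather, and its precursor is cut at the 3′ end to release mascRNA, a small tRNA-like RNA. On GRCh38, both genes lie on the plus strand of chromosome 11. NEAT1 (ENSG00000245532) covers chr11:65422774-65445540, 22767 nt, and MALAT1 (ENSG00000251562) covers chr11:65497640-65508073, 10434 nt. Positions below are counted from the annotated 5′ end of each gene, in GENCODE release 44.

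The groups of sites with the most cDNAs show what was cross-linked in each RNA and list. Sites no more than 20 nt apart were joined into clusters, and the cluster with the largest sum of each RNA and list is printed 5′ to 3′ from the reference genome, with 5 nt on either side. Capitals mark the crosslink sites of that list, and T stands for U. They lie at chr11:65443431-65443455 (NEAT1, PDCD4), chr11:65429151-65429223 (NEAT1, IgG), chr11:65505162-65505201 (MALAT1, PDCD4) and chr11:65504731-65504808 (MALAT1, IgG).
NEAT1, PDCD4: aatgaTtTTtatatcTtTtCtgctt
NEAT1, IgG: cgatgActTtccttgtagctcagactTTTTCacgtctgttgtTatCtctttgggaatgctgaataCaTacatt
MALAT1, PDCD4: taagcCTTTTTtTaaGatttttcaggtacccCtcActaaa
MALAT1, IgG: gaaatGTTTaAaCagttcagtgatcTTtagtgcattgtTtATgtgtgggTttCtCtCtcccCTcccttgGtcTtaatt
The NEAT1 cluster of PDCD4 spanned 15 nt, with 6 sites and 21 cDNAs, and the IgG list had no site in it or within 50 nt of it. The next PDCD4 clusters of NEAT1, at 14904 to 14920 and 20903 to 20920, held 19 cDNAs each, and the latter held 1 IgG site with 6 cDNAs. The NEAT1 cluster of IgG spanned 63 nt, with 11 sites and 37 cDNAs. It held no PDCD4 site, and 1 with 6 cDNAs lay within 50 nt. In MALAT1, the PDCD4 cluster held 10 sites and 26 cDNAs beside 2 IgG sites with 8 cDNAs. With 50 nt on either side, these were 6 IgG sites with 24 cDNAs. The MALAT1 cluster of IgG held 19 sites and 78 cDNAs beside 5 PDCD4 sites with 8 cDNAs. With 50 nt on either side, these were 8 PDCD4 sites with 14 cDNAs. The leading cluster of PDCD4 and that of IgG thus lay in different stretches of each RNA.

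The single sites with the highest scores, where the score is the number of cDNAs counted at 1 nt, are printed with 15 nt before and 14 nt after them, the site in capitals. They lie at chr11:65437662-65437691, chr11:65424927-65424956, chr11:65501353-65501382 and chr11:65503119-65503148, in the order given.
NEAT1 position 14904, PDCD4: gtctttccatccactCacgtctatttaatt
NEAT1 position 2169, IgG: tgtgggggatgggggTatgcagcttggcac
MALAT1 position 3729, PDCD4: accaccacaggtttaCagtttatagaaact
MALAT1 position 5495, IgG: aggtatctcttcgttAtcagaagagttgct
The NEAT1 sites had scores of 8 for PDCD4 and 10 for IgG, and each tied with other sites of its list (position 20673 for PDCD4, positions 5739 and 10083 for IgG). The MALAT1 sites had scores of 10 for PDCD4 and 12 for IgG. None of the printed sites was listed for the other immunoprecipitation, whereas position 5739 of NEAT1 was also a PDCD4 site, with a score of 2. Within 15 nt, PDCD4 had 3 sites with 6 cDNAs around position 5739 of NEAT1 and also 3 sites with 6 cDNAs around the printed IgG site of MALAT1, and none around positions 2169 and 10083 of NEAT1.

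Both RNAs took a smaller share of the PDCD4 list than of the IgG list. NEAT1 had 179 sites with 532 cDNAs for PDCD4 (95% Poisson interval 488 to 579) and 400 sites with 1254 cDNAs for IgG (1185 to 1325). Relative to all cDNAs of a list, 409308 for PDCD4 and 276139 for IgG, this was 13.0 and 45.4 cDNAs per 10000, a log2 ratio of shares of -1.80 (-1.95 to -1.66). MALAT1 had 125 sites with 382 cDNAs for PDCD4 (345 to 422) and 269 sites with 886 cDNAs for IgG (829 to 946), or 9.33 and 32.1 per 10000, a log2 ratio of -1.78 (-1.95 to -1.61). The ratios of the RNAs differed by less than their intervals. Since the RNAs were selected on these sums, the ratios are descriptions. By the methods, IgG crosslink sites were subtracted from the PDCD4 replicates, and no such step is given for IgG. How far this changed the ratios was not tested. Of the 1795 genes with at least 100 cDNAs over both lists, 10.6% had a log2 ratio of -1 or less, and the median was -0.14. NEAT1 had the largest IgG sum of all genes and the 35th largest PDCD4 sum, and MALAT1 the 4th and the 62nd. These are bulk lysates of the same cell line, and the sums do not tell how many cells hold an RNA or how much each holds. RNA abundance was not analysed here.

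**Figure D1:**
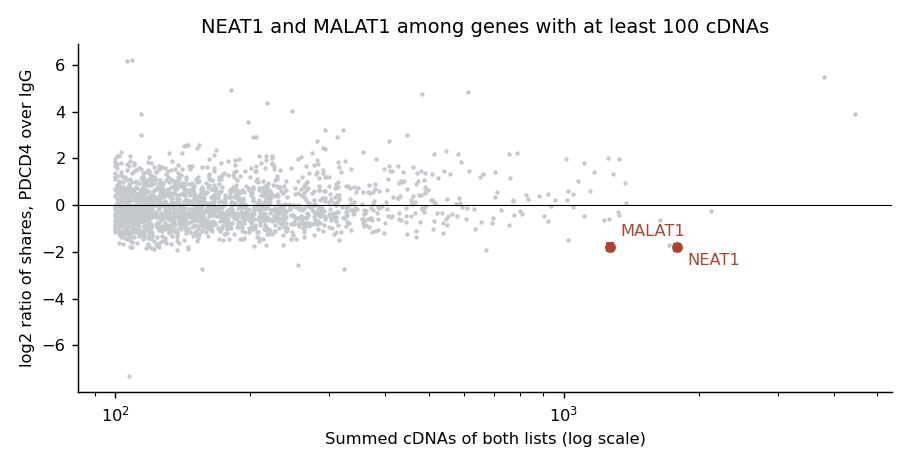
Log2 ratio of the share of PDCD4 cDNAs over the share of IgG cDNAs (y axis) against the summed cDNAs of both lists (x axis, log scale), 1 point per gene with at least 100 cDNAs. NEAT1 and MALAT1 are in red with 95% counting intervals, at -1.80 and -1.78, below most genes of their sum.

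Per length, which is the scale on which the RNAs can be set side by side, MALAT1 carried more cDNAs than NEAT1 in both lists. PDCD4 gave 36.6 cDNAs per kb in MALAT1 and 23.4 in NEAT1, and IgG gave 84.9 and 55.1. Sites covered 1.20% of the nucleotides of MALAT1 for PDCD4 and 2.58% for IgG, and 0.786% and 1.76% of those of NEAT1. Most nucleotides of either RNA thus carried no listed site. The lengths used are those of the annotated genes. Between the outermost sites lay 6862 of the 10434 nt of MALAT1 and 22614 of the 22767 nt of NEAT1. Over that stretch, the values of MALAT1 would be higher.

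Sites with higher scores were frequent in both RNAs, whichever antibody was used. The filter of the study, a score greater than 5, kept 7.82% of the PDCD4 sites of NEAT1 (14 of 179; 95% Wilson interval 4.72% to 12.7%) and 9.50% of its IgG sites (38 of 400; 7.0% to 12.8%). For MALAT1 it kept 13.6% of the PDCD4 sites (17 of 125; 8.67% to 20.7%) and 13.0% of the IgG sites (35 of 269; 9.51% to 17.6%). Over the whole lists, it kept 1.48% and 0.690%. Within each RNA, the intervals of PDCD4 and IgG overlapped.

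The count past this threshold rests on sites close to it. Just inside, at a score of 6, lay 7 PDCD4 and 22 IgG sites of NEAT1, and 10 PDCD4 and 15 IgG sites of MALAT1. Just outside, at a score of 5, lay 14 and 40 sites of NEAT1, and 7 and 28 of MALAT1. No PDCD4 site of either RNA had a score above 10, while the highest score in the PDCD4 list was 87. Of IgG, only 1 site had one, in MALAT1. Past the threshold, NEAT1 kept 93 PDCD4 and 260 IgG cDNAs and MALAT1 114 and 248. These were 48.1 and 522 per 10000 of the filtered cDNAs for NEAT1, a log2 ratio of -3.43 (-3.77 to -3.09), and 59.0 and 498 for MALAT1, a log2 ratio of -3.07 (-3.39 to -2.75). Of the 59 genes with at least 50 cDNAs past the threshold, 18.6% had a log2 ratio of -1 or less, and their median was 1.59. The PDCD4 list holds more cDNAs than the IgG list, and how this bears on counts past a fixed score was not tested.

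Summed over 4 equal segments, the PDCD4 cDNAs of NEAT1 were spread almost evenly, while the IgG cDNAs thinned out from the 5′ to the 3′ end. Single bins of 500 nt varied in both lists, with 0 to 45 PDCD4 cDNAs (median 10) and 0 to 97 IgG cDNAs (median 25). The profile in bins of 500 nt covers 46 bins, of which 37 had sites of both lists, 6 of IgG alone, 2 of PDCD4 alone and 1 of neither. The bin at positions 2001 to 2500 had the most IgG cDNAs, 97 at 22 sites, and no PDCD4 site, which makes the IgG share there at least 47.9-fold higher with a floor of 3 cDNAs for the empty list. The bin at 20501 to 21000 had the most PDCD4 cDNAs, 45 at 13 sites, against 8 at 2 IgG sites, a log2 ratio of 1.79 (0.76 to 2.82). In the bin at 22001 to 22500, 22 PDCD4 cDNAs stood against none of IgG, 4.95-fold higher with the same floor. The log2 ratio was 3.96 (1.07 to 6.84). A higher share of the PDCD4 list than of the IgG list was found in 8 bins. Bins rich in PDCD4 cDNAs were not those rich in IgG cDNAs. Over the 45 bins with a site, Spearman's rho was 0.11 and Pearson's r was -0.05. These values describe bins that share the same RNA and libraries. By the methods, IgG sites were subtracted from the PDCD4 replicates, so the PDCD4 and IgG profiles are not independent. What this did to the bins and segments was not tested.

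**Figure D2:**
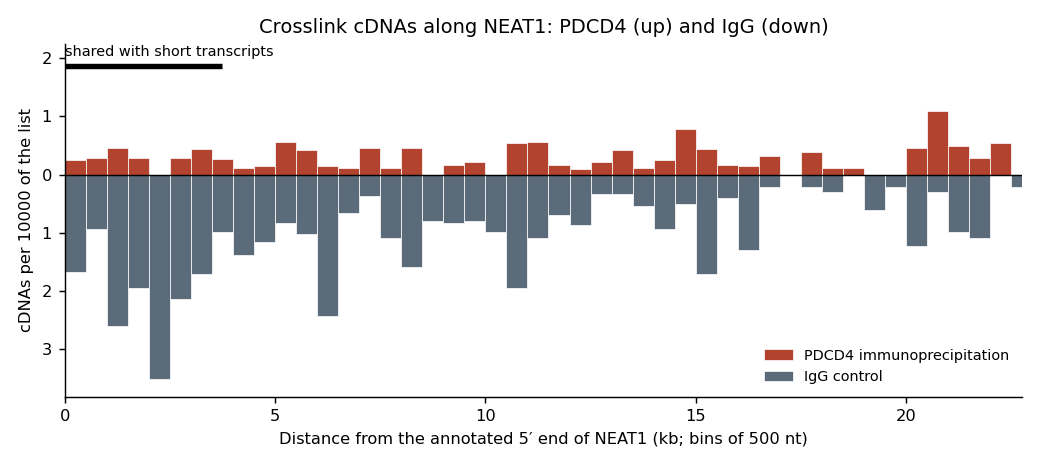
cDNAs in bins of 500 nt along NEAT1, as cDNAs per 10000 of all cDNAs of the list, PDCD4 upwards and IgG downwards from 0; the x axis is the distance from the annotated 5′ end in kb, and the black line spans positions 1 to 3740, which short transcripts share. PDCD4 bars occur along the whole RNA, with the highest at 20501 to 21000, and IgG bars are longest near the 5′ end, at 2001 to 2500.

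Cut into 4 equal segments from 5′ to 3′, NEAT1 had 128, 127, 133 and 144 PDCD4 cDNAs. These were 24.1% (20.6% to 27.9%), 23.9% (20.4% to 27.7%), 25% (21.5% to 28.9%) and 27.1% (23.5% to 31%) of its PDCD4 cDNAs, with overlapping intervals. The IgG cDNAs numbered 527, 369, 216 and 142. Their shares were 42.0% (39.3% to 44.8%), 29.4% (27.0% to 32.0%), 17.2% (15.2% to 19.4%) and 11.3% (9.69% to 13.2%), and no 2 of these intervals overlapped. The log2 ratio of PDCD4 over IgG therefore went from -2.60 (-2.88 to -2.32) in the segment at the 5′ end through -2.10 and -1.26 to -0.55 (-0.88 to -0.21) in the segment at the 3′ end. Sites with a score greater than 5 were fewer, with 5, 2, 4 and 3 for PDCD4 and 19, 9, 5 and 5 for IgG. The PDCD4 cDNAs at these sites numbered 32, 13, 27 and 21, a less even spread on only 14 sites.

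The annotation splits NEAT1 at position 3740. Of its 9 annotated transcripts, 8 end at or before this position, and only the long unspliced transcript reaches position 22767. In the region shared with the short transcripts, PDCD4 had 88 cDNAs (23.5 per kb) and IgG 409 (109 per kb), a log2 ratio of -2.77 (-3.10 to -2.44). In the region of the long transcript alone, PDCD4 had 444 cDNAs (23.3 per kb) and IgG 845 (44.4 per kb), a log2 ratio of -1.49 (-1.66 to -1.33). The density of PDCD4 cDNAs was about the same on both sides of the border, and that of IgG was higher on the 5′ side. The cDNAs of the short and the long transcript cannot be told apart in the shared region. Another boundary gave the same order: the first 4000 nt held 17.7% (14.7% to 21.1%) of the PDCD4 cDNAs and 34.1% (31.6% to 36.8%) of the IgG cDNAs of NEAT1. Among sites with a score greater than 5, it held 28.0% (19.9% to 37.8%) of the PDCD4 and 42.7% (36.8% to 48.8%) of the IgG cDNAs, so the even spread of PDCD4 was that of all listed sites.

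MALAT1 had a different profile. No site lay before position 1484 or after position 8345: the outermost sites were at 1484 and 8345 for IgG and at 1593 and 8281 for PDCD4. The annotated gene is longer than this stretch on both sides, and 33 of its 66 annotated transcripts start between positions 1399 and 1452. The mascRNA, at positions 8478 to 8535 (chr11:65506117-65506174 in RefSeq), had no site in either list. Of the 21 bins of 500 nt, 13 had sites of both lists, 2 of IgG alone and 6 of neither. The bin at 5501 to 6000 had 27 IgG sites with 89 cDNAs and no PDCD4 site. The IgG share was 44-fold higher there with the same floor, and the log2 ratio was -7.06 (-9.90 to -4.22). At 2001 to 2500 the order was turned, with 23 PDCD4 cDNAs at 5 sites and 2 IgG cDNAs at 1 site, a log2 ratio of 2.43 (0.70 to 4.16). A higher PDCD4 share was found in 2 bins, this one and the next. Over the 15 bins with a site, Spearman's rho was 0.25 and Pearson's r 0.22, again as a description of bins of 1 RNA. The limit set by the subtraction of IgG sites holds here too.

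**Figure D3:**
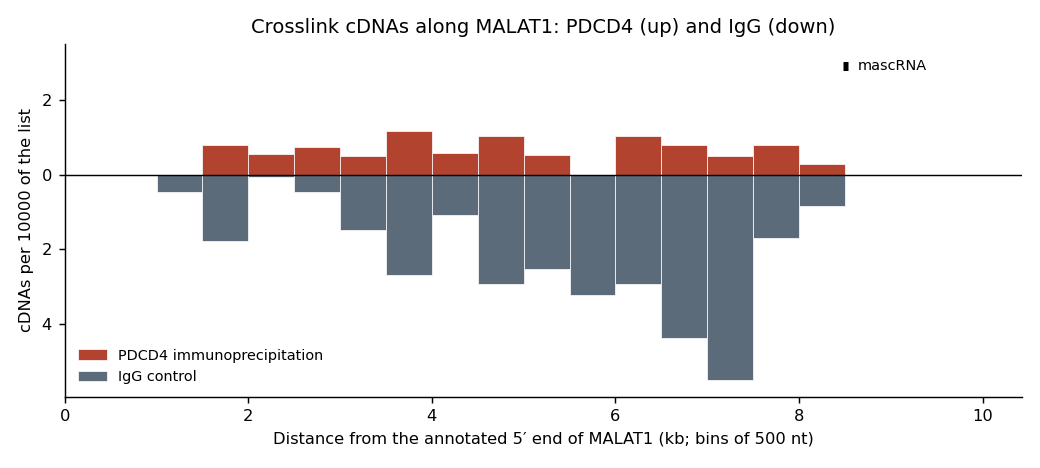
cDNAs in bins of 500 nt along MALAT1, drawn as for NEAT1: cDNAs per 10000 of the list on the y axis, PDCD4 upwards and IgG downwards, distance from the annotated 5′ end in kb on the x axis, with mascRNA marked. PDCD4 bars are highest at 3501 to 4000 and missing at 5501 to 6000, and IgG bars are longest at 6501 to 7000 and in the bin at 7001 to 7500.

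Here the IgG cDNAs gathered towards the 3′ side, the reverse of their course along NEAT1. The segments of MALAT1 from 5′ to 3′ held 64, 279, 506 and 37 IgG cDNAs, or 7.22% (5.70% to 9.12%), 31.5% (28.5% to 34.6%), 57.1% (53.8% to 60.3%) and 4.18% (3.04% to 5.70%). PDCD4 gave 69, 161, 133 and 19 cDNAs, or 18.1% (14.5% to 22.2%), 42.1% (37.3% to 47.2%), 34.8% (30.2% to 39.7%) and 4.97% (3.21% to 7.64%). The log2 ratio was -0.46 (-0.95 to 0.03) in the segment at the 5′ end, -1.36 and -2.49 (-2.76 to -2.21) in those that follow, and -1.49 (-2.27 to -0.71) at the 3′ end. The single bin with the most IgG cDNAs, at 7001 to 7500, had 152 at 41 sites against 21 at 11 PDCD4 sites. Downstream of the midpoint of MALAT1 lay 39.8% (35.0% to 44.8%) of the PDCD4 cDNAs and 61.3% (58.0% to 64.4%) of the IgG cDNAs. This midpoint is that of the annotated gene, which is longer than the stretch with sites. With the RefSeq midpoint, chosen after seeing the data, the shares were 55.2% and 74.9%. Counted as sites, they were 46.4% and 57.6%, with overlapping intervals. Sites with a score greater than 5 were set further apart: 5, 8, 4 and 0 of the PDCD4 sites fell in the segments from 5′ to 3′, and 1, 7, 26 and 1 of the IgG sites.

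**Figure D4:**
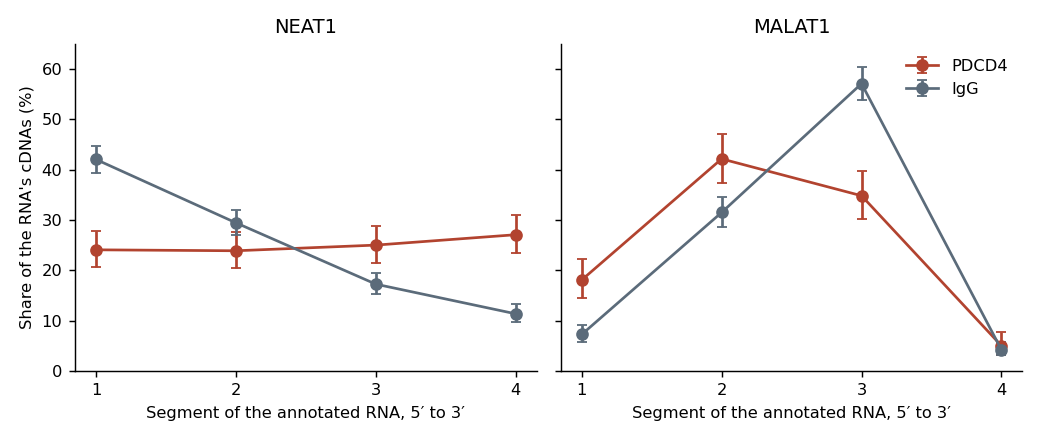
Share of the cDNAs of NEAT1 (left) and MALAT1 (right) in each segment of the annotated RNA from 5′ to 3′, in percent, for PDCD4 (red) and IgG (grey), with 95% Wilson intervals for counting error. In NEAT1 the PDCD4 shares stay between 23.9% and 27.1% while IgG falls from 42.0% to 11.3%; in MALAT1 IgG has its highest share, 57.1%, in segment 3, where PDCD4 has 34.8%.

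The distance from a PDCD4 site to the nearest IgG site ranged from 0 to more than 20 nt in both RNAs. In NEAT1, 9 positions were listed for both, 5.03% of the PDCD4 sites and 2.25% of the IgG sites, and in MALAT1 10, which were 8% and 3.72%. In the whole lists, 721 positions were shared, 0.454% of the PDCD4 sites, a smaller share than in either RNA. A further 19 PDCD4 sites of NEAT1 and 13 of MALAT1 lay 1 nt from an IgG site, and 92 (51.4%) and 52 (41.6%) lay more than 20 nt away. The median distance to the nearest IgG site was 24 nt in NEAT1 and 14 nt in MALAT1.

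According to the methods, sites found with IgG were taken out of the PDCD4 data ahead of peak calling, and such a step can remove PDCD4 sites from an RNA rich in IgG sites. Pairs of a PDCD4 and an IgG site were therefore counted by their distance. At a distance of 0 there were 9 pairs in NEAT1, against 8 to 14 (mean 11.7) at each distance of 1 to 5 nt upstream or downstream, and 10 pairs in MALAT1, against 7 to 15 (mean 10.6). At 21 to 30 nt the means were 2.65 and 8.60. These pairs are of sites still listed, and how far the subtraction lowered the PDCD4 counts of NEAT1 and MALAT1 was not tested.

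Larger units overlapped more often. Joined at gaps of up to 20 nt, the sites of NEAT1 formed 77 PDCD4 and 131 IgG clusters, of which 13 of either list overlapped one of the other, 16.9% and 9.92%. MALAT1 had 50 PDCD4 and 66 IgG clusters, with 11 (22.0%) and 10 (15.2%) overlapping. In windows of 100 nt, 57.5% of the 73 NEAT1 windows with PDCD4 sites also had IgG sites, and 38.9% of the 108 windows with IgG sites had PDCD4 sites. The same shares of MALAT1 were 71.1% of 38 windows and 56.3% of 48. Of all windows, 108 of 228 in NEAT1 and 48 of 105 in MALAT1 had IgG sites. In MALAT1 all sites lay within 6862 nt, so windows outside this stretch could not overlap. In each of these units MALAT1, the RNA with more sites per kb, had the larger overlap. Larger units and denser sites meet more often by themselves, and overlap beyond this was not tested.

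Crosslink sites of both RNAs fell on uridines, for PDCD4 and for IgG alike. In NEAT1, 59.2% (51.9% to 66.2%) of the PDCD4 sites and 55.5% (50.6% to 60.3%) of the IgG sites were uridines, while uridines make up 31.7% of the RNA. In MALAT1 the shares were 60% (51.2% to 68.2%) and 58.4% (52.4% to 64.1%), against 29.7% of the stretch between its outermost sites. The intervals of PDCD4 and IgG overlapped in both RNAs. Over all sites of the lists, 46.7% of the PDCD4 and 51.6% of the IgG sites were uridines. UV light is known to cross-link uridines with preference. The uridine share was as high or higher 1 nt downstream, with 60.9% and 55.5% in NEAT1 and 64.0% and 65.8% in MALAT1, and came down to about the level of the RNA within 10 nt. Of the 14 PDCD4 sites of NEAT1 with a score greater than 5, 35.7% (16.3% to 61.2%) were uridines, an interval that overlaps that of all its sites. Guanosine was found at 8.94% (5.58% to 14%) of the PDCD4 sites and 16% (12.7% to 19.9%) of the IgG sites of NEAT1, and at 9.60% and 8.55% of those of MALAT1.

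**Figure D5:**
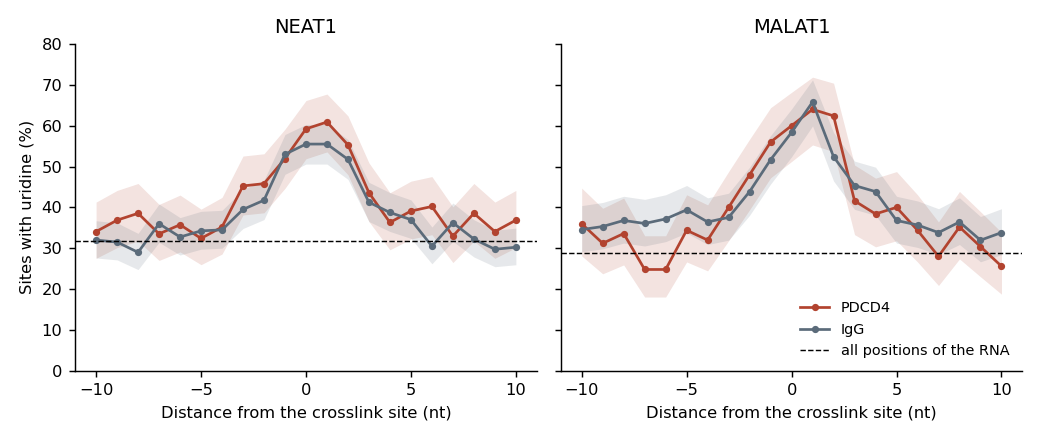
Percent of sites with uridine (y axis) at each distance from the crosslink site in nt (x axis, negative upstream), for NEAT1 (left) and MALAT1 (right), PDCD4 in red and IgG in grey with 95% Wilson bands; the dashed line is the uridine share of all positions of the RNA. Both lists peak at 0 to 1 nt, with 59.2% and 55.5% at 0 in NEAT1 and 60% and 58.4% in MALAT1.

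Motifs were counted in the 21 nt centred on each site, on the RNA strand, which here is the plus strand, against all windows of this length between the outermost sites. A run of 5 uridines (UUUUU) was found at 22.3% (16.9% to 29.0%) of the PDCD4 and 26.0% (21.9% to 30.5%) of the IgG sites of NEAT1, and in 6.84% of its windows. In MALAT1 it was found at 30.4% (23.0% to 38.9%) and 29.7% (24.6% to 35.5%) of the sites and in 8.42% of the windows. The cluster of PDCD4 in MALAT1 printed above has such a run under its sites and another without a site. AUUUA stood near 9.50% (6.01% to 14.7%) of the PDCD4 and 5.25% (3.46% to 7.89%) of the IgG sites of NEAT1, with 3.44% of the windows, and near 4.80% and 4.83% of the sites of MALAT1, with 4.62% of the windows. GGA, a purine motif, was at or below its share of all windows: 13.4% (9.18% to 19.2%) of the PDCD4 and 23.8% (19.8% to 28.2%) of the IgG sites of NEAT1 against 24.3%, and 16% (10.6% to 23.4%) and 21.9% (17.4% to 27.3%) of those of MALAT1 against 33.2%. The PDCD4 and IgG intervals did not overlap for GGA in NEAT1, and they overlapped for GGA in MALAT1 and for UUUUU and AUUUA in both RNAs. Windows of neighbouring sites overlap, while the intervals treat them as independent, so they are too narrow. The gap between the GGA intervals in NEAT1, from 19.2% to 19.8%, is small beside this.

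The labels were checked against the positions. All sites inside either gene were on the plus strand, and the 52099 nt between the genes had no site in either list. Within NEAT1, 2 PDCD4 sites with 5 cDNAs and 1 IgG site with 7 cDNAs bore another label and were not counted as members.

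Protein-coding genes around NEAT1 and MALAT1 did not have their low ratio. Of 21 such genes within 250 kb, 16 had a site, and the 4 with at least 50 cDNAs over both lists had log2 ratios above 0, with a median of 1.25 against -0.14 over the 3972 genes of that sum. LTBP3, which encodes a protein that binds latent TGF-beta, had 81 PDCD4 cDNAs and none of IgG. Its PDCD4 share was 18.2-fold higher with a floor of 3 cDNAs, and its log2 ratio was 5.79 (2.94 to 8.63). PCNX3 had 86 and 14, a log2 ratio of 1.97 (1.18 to 2.76). The lowest were CAPN1, a calpain protease, with 63 and 29 (0.53, -0.10 to 1.15) and EHBP1L1 with 50 and 31 (0.10, -0.53 to 0.74). All stood above the members of the same chromosome region, with intervals apart from theirs.

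Other long non-coding RNAs did not come as low either. Of 19 looked for, MEG3, MIAT, HOTTIP and TALAM1, the antisense transcript of MALAT1, had no listed site. Of the 12 with at least 50 cDNAs, 3 had a log2 ratio of -1 or less, beside 12.7% of all genes of that sum, and the median was -0.48. The lowest was FTX, a regulator of XIST, with 118 PDCD4 and 190 IgG cDNAs (-1.25, -1.58 to -0.92), followed by LINC-PINT with 45 and 67 (-1.13, -1.67 to -0.59). The highest were SNHG1, a host of small nucleolar RNAs, with 61 and 21 (0.93, 0.23 to 1.63), and NORAD, a cytoplasmic RNA that binds Pumilio proteins, with 36 and 16 (0.55, -0.27 to 1.38). The interval of FTX did not reach those of NEAT1 and MALAT1, and that of LINC-PINT did.

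The mRNAs of the proteins that gather in the nuclear bodies of NEAT1 and MALAT1 were also read. Of 15 mRNAs of paraspeckle proteins with at least 50 cDNAs, 2 had a log2 ratio of -1 or less, beside 12.7% of all genes of that sum, and the median was 0.60. They were PSPC1, with 43 PDCD4 and 66 IgG cDNAs (-1.17, -1.72 to -0.63), and MATR3, with 122 and 176 (-1.09, -1.42 to -0.76). Sites were taken by symbol here, and the symbol MATR3 stands for 2 identifiers, whereas the share over all genes was counted by identifier. With ENSG00000280987 alone, MATR3 had 122 and 146 (-0.82), above -1, so that the count rests on this choice. NONO, whose protein is needed for paraspeckles, was the highest, with 86 and 4 (3.55, 2.25 to 4.85), followed by SMARCA4, a subunit of the SWI/SNF chromatin remodeller, with 222 and 58 (1.35, 0.94 to 1.76). Of 10 mRNAs of nuclear speckle proteins with at least 50 cDNAs, 2 had a ratio of -1 or less, beside the same 12.7%, and the median was 0.18. These were the splicing factors SRSF3, with 17 and 38 (-1.68, -2.49 to -0.88), and SRSF5, with 24 and 37 (-1.17, -1.90 to -0.44), while SRSF6 had 52 and 4 (2.84, 1.52 to 4.16) and SRRM2, a scaffold of the speckles, 583 and 174 (1.17, 0.93 to 1.41).

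The genes whose ratio was nearest to that of NEAT1, among the 1795 with at least 100 cDNAs, were MAGI3 (32 PDCD4 and 77 IgG cDNAs), UBE2E3 (37 and 88) and JPH2 (43 and 102), and the nearest to MALAT1 were ABCC4 (32 and 76), JPH2 and UBE2E3. All had log2 ratios between -1.81 and -1.79, on sums far below those of NEAT1 and MALAT1. A lower ratio than that of NEAT1 was found in 11 of the 1795 genes, and a lower one than that of MALAT1 in 15. Among the 5 genes with the largest IgG sums, HPCAL1, a neuronal calcium sensor gene, came close, with 535 and 1182 cDNAs and a log2 ratio of -1.71 (-1.86 to -1.56). CDH4, a cadherin, had 1179 and 955 (-0.26, -0.39 to -0.14), and PVT1, a long non-coding RNA next to MYC, 798 and 840 (-0.64, -0.78 to -0.50).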

How the data were processed

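The iCLIP samples of MCF10A cells (2 PDCD4, 2 IgG) were analysed; other data of the study were left out. Per the methods, the authors ran iCount on an Ensembl genome (release 88), subtracted IgG crosslink sites from the PDCD4 replicates, pooled the replicates and deposited 1 list of 1-nt sites per immunoprecipitation. The deposited score of a site is a raw cDNA count, not normalized, and sites that passed iCount's false discovery rate filter are listed from a score of 1. The filter on scores greater than 5 was applied here, as a second setting. How reads were aligned, and cDNAs collapsed, is not given in the sources used here.

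Sites were taken by the exact symbol in their label. The members and gene lists were chosen with earlier results of these data known. Named genes are NEAT1, MALAT1, the 5 genes with the largest IgG sums, the 3 nearest in ratio to each RNA and the 2 highest and 2 lowest of each list with at least 50 cDNAs. Sums were divided by all cDNAs of the list, with a pseudocount of 1 in log2 ratios, whose 95% intervals are from counting error. Shares have Wilson intervals and counts exact Poisson intervals. PCR duplicates that were not collapsed would make them too narrow. The lists held 409308 (PDCD4) and 276139 (IgG) cDNAs. Positions and sequences are from GENCODE release 44 and the GRCh38 genome, and mascRNA from RefSeq. With 1 pooled list per group, no test was possible. The statistics were tested on simulated data. Alternatives were the score threshold, the number of sites, other totals, label and position rules, shared positions, the 5 highest sites, boundaries moved by 500 nt and the nucleotide downstream. Scripts ran on Python 3.11.15 (matplotlib 3.10.9, scipy 1.17.1, pandas 2.3.3, numpy 2.4.6).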

Additional observations from a re-analysis of the deposited data

How the results depend on the processing

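The values were computed again in 50 ways, each with 1 choice changed, of which 32 stayed within the 95% counting interval of the value as reported and 18 left it, none with a change of sign in a log2 ratio. The ratios of NEAT1 and MALAT1 left it only for scores greater than 5, at -3.43 and -3.07. With a score above 10 no ratio was given, since too few sites were left. PDCD4 had none, and IgG had none in NEAT1 and 1 in MALAT1. For scores greater than 5, the share of NEAT1 cDNAs in the first 4000 nt was 28.0% for PDCD4 and 42.7% for IgG, that of MALAT1 cDNAs downstream of the midpoint 22.8% and 78.2%, and the uridine share 35.7% at PDCD4 sites of NEAT1 and 47.1% and 51.4% at PDCD4 and IgG sites of MALAT1. Counting sites in place of cDNAs gave 46.4% of PDCD4 and 57.6% of IgG sites of MALAT1 downstream of its midpoint, with overlapping intervals. A midpoint 500 nt nearer the 5′ end gave 48.7% and 70.5%, and 500 nt nearer the 3′ end 52.6% for IgG. With the midpoint of the RefSeq gene, chosen after seeing the data, the shares were 55.2% and 74.9%. A boundary 500 nt further downstream in NEAT1 gave 37.2% for IgG. The uridine share 1 nt downstream of IgG sites of MALAT1 was 65.8%. PDCD4 had the lower share in each of these pairs of NEAT1 and MALAT1 cDNAs.

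No paired analysis was possible because each list pools its replicates. A site with 5 or 6 cDNAs lies at the limit of the score filter, and the shares past it rest on 14 to 38 sites. What the subtraction of IgG sites took from either RNA cannot be measured in the pooled lists.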
